A study of Mus musculus with 4 samples.

Results

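Mouse odorant receptor (Olfr) and vomeronasal receptor (Vmn1r, Vmn2r) genes were followed in single-nucleus RNA libraries of the adult cerebral cortex. Of 32285 counted genes, 1468 carried a symbol of these families, and 155 of them reached the minimum of 20 unique molecular identifiers (UMIs, each one counted transcript) summed over all barcodes of 4 libraries. These 155 genes comprised 112 of 1135 Olfr, 17 of 209 Vmn1r and 26 of 124 Vmn2r symbols, and they held 35452 of the 37644 UMIs of the families (94.2%). Another 821 symbols had 0 UMIs. The genes were chosen by these UMIs, summed over both genotypes and all cell types, so their totals are given as a description. Vmn2r18, Olfr10, Olfr166 and Olfr655 lay just inside the minimum with 20 UMIs each, and Olfr1490, Olfr372, Olfr775 and Olfr967 just outside it with 19 each.

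Cortical nuclei came from 2 mice of the Setdb1-CK-cKO genotype, a conditional knockout of Setdb1, called KO here. What the letters CK stand for, and so the cells in which the gene is deleted, is not stated in the labels. The control was the wild type (WT), also 2 mice. All 4 animals were 5 months old and on the C57BL/6 background. The nuclei were purified through sucrose and counted by the 10x 3′ method, with 1 library per animal.

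Odorant receptors sit in the cilia of olfactory sensory neurons of the nose, and each such neuron transcribes a single receptor allele from a family arranged in long genomic clusters. The silent family members are packed in heterochromatin carrying the histone H3 lysine 9 methyl mark that SETDB1 and related enzymes deposit. Receptor signals pass through the G protein subunit encoded by Gnal, the adenylyl cyclase encoded by Adcy3 and a cyclic nucleotide-gated channel that contains CNGA2. Vomeronasal receptors detect pheromones in the vomeronasal organ, where type 1 receptors pair with the G protein alpha subunit encoded by Gnai2 and type 2 receptors with that encoded by Gnao1.

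Start-site windows from RefSeq (assembly GRCm38.p6) are printed for 5 genes on which the results turn. These are 3 nearby odorant receptor genes of chromosome 19 with 0 WT UMIs, Olfr31 of chromosome 14, and the vomeronasal gene Vmn2r78 that was read in KO astrocytes. Each window runs 5′ to 3′ from 250 bases before to 50 bases after the RefSeq start. Capitals mark the ATG at window base 251 and any TAATTA or TAATGA hexamer on either strand. TCATTA is TAATGA on the other strand. The windows of Olfr1501 and Olfr1504, set side by side here, were 93.4% identical over 301 aligned columns.
Olfr1505 (chr19:13918772-13919071, plus strand): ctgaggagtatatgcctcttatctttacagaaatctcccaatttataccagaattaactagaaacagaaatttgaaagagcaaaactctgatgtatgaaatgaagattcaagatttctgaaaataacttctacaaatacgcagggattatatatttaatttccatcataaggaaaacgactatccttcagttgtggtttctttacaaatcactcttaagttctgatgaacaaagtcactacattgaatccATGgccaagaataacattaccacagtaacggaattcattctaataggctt
Olfr1504 (chr19:13888159-13888458, minus strand): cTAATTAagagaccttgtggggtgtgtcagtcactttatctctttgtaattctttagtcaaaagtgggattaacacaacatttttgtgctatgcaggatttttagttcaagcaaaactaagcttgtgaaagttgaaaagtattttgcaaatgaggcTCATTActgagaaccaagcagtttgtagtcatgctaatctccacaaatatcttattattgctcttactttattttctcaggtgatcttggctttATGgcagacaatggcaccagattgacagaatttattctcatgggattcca
Olfr1501 (chr19:13839122-13839421, minus strand): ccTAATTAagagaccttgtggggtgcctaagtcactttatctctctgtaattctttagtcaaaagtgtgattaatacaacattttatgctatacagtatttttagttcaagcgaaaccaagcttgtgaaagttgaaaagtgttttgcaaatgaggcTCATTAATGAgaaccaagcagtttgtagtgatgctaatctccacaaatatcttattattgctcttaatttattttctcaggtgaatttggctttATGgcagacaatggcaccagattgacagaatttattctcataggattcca
Olfr31 (chr14:14327863-14328162, plus strand): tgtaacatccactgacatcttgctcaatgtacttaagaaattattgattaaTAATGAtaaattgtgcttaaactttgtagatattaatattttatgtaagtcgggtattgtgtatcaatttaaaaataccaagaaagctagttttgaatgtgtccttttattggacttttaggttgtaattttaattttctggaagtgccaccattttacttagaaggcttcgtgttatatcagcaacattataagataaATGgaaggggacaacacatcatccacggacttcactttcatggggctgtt
Vmn2r78 (chr7:86915099-86915398, plus strand): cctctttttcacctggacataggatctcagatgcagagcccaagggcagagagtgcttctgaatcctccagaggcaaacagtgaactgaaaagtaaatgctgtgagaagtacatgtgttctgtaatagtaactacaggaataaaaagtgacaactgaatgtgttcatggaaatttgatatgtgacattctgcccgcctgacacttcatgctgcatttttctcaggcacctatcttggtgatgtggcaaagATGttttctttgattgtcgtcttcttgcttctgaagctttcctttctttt

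Windows were found for 130 of the 155 genes (131 windows), and 96 of these windows had ATG at base 251, so these windows lie around the translation start. The 5′ end annotated by GENCODE lay 5492 bases from the RefSeq start for Olfr1505, 9720 bases for Olfr1504, 11521 bases for Olfr1501, 5285 bases for Olfr31 and 255 bases for Vmn2r78. The letters TAATTA, searched on both strands, were in 1738 of 32851 mouse windows (5.29%), in 211 of 1272 receptor windows (16.6%) and in 3 of the 18 windows of the genes that rose in excitatory neurons or over all barcodes. TAATGA was in 9.78% of all windows, 26.7% of receptor windows and 5 of the 18. CCCNNGGG, with N any base, was in 13.7% of all windows, 4.17% of receptor windows and 1 of the 18.

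Each library held 11790 to 14493 barcodes and 38314394 to 45605971 UMIs, with a median of 2468.5 to 2903.5 UMIs per barcode. Between 48 and 64 barcodes were shared by any pair of libraries. Levels are given as CPM, the UMIs of a gene for every 1000000 UMIs of its library or class, and as TMM CPM where the totals were also scaled by edgeR's TMM factors. Setdb1 itself had 69.7 and 66.0 CPM in the KO libraries, against 69.1 and 64.8 in the WT libraries. These 3′ counts need not lie in the deleted part, whose position is not given in the sources used here, so they do not check the genotype. KO library 1, labelled female, had 0.961 CPM of Xist and 82.6 CPM of Uty, and KO library 2, labelled male, had 1384 CPM of Xist and 0.0261 CPM of Uty, so both KO sex labels go against the RNA. WT library 1, labelled male, had 1.80 CPM of Xist and 89.3 CPM of Uty, and WT library 2, labelled female, had 1025 CPM of Xist and 0.117 CPM of Uty. Each genotype thus held 1 library of each pattern.

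Levels were low and uneven. The genes ranged from 20 to 4520 UMIs with a median of 62, and the top 5 held 45.5% of their UMIs. Olfr239, Vmn2r87, Olfr539, Olfr55 and Olfr323 led over all barcodes. Of the 155 genes, 109 would have reached 20 UMIs in the KO libraries alone and 89 in the WT libraries alone, and 127 had at least 10 in each genotype. 6 genes (Vmn2r78, Olfr1505, Olfr1504, Olfr1501, Olfr165 and Olfr1496) had 0 WT UMIs and 0 genes had 0 KO UMIs. These 6 met the minimum through the KO libraries only, so they had to differ. The 155 genes lay on 17 chromosomes and in 45 of 78 receptor clusters, counted with gaps of at most 500 kb. Their median gene length was 8964 bases, against 6099 bases for the receptor genes below the minimum.

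The summed receptor level of both KO libraries lay above that of both WT libraries in excitatory and inhibitory neurons, astrocytes, microglia and oligodendrocyte precursors, and not in oligodendrocytes or fibroblasts. In astrocytes this rested on genes short of 20 UMIs in WT alone, since with the 89 genes that reach it the astrocyte groups overlapped. Of the genes left out, Vmn2r78 held 40.9 and 72.3 CPM in KO astrocytes against 0 and 0 in WT. Nuclei were clustered without any receptor gene among the clustering genes and named by marker genes, so class and subclass names here stand for excitatory-neuron-like, layer 6b-like and so on. In excitatory neurons the 155 genes had 285 and 273 CPM in KO against 206 and 216 in WT, a ratio of means of 1.32. In inhibitory neurons they took 197 and 202 CPM in KO against 129 and 151 in WT (1.42).

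In astrocytes the sum was 160 and 224 CPM in KO against 104 and 120 in WT (1.71), and in microglia it was 264 and 246 against 150 and 178 (1.56). Oligodendrocytes gave 52.0 and 83.5 CPM in KO against 59.6 and 62.3 in WT, and fibroblasts 132 and 100 against 98.1 and 139, with overlapping groups in both. Oligodendrocyte precursors gave 96.1 and 118 CPM in KO and 81.5 and 92.5 in WT. The excitatory sum by family was 182 and 168 CPM for Olfr in KO against 125 and 131 in WT, 8.24 and 6.40 against 5.21 and 5.53 for Vmn1r, and 94.6 and 98.3 against 75.8 and 80.3 for Vmn2r. No p is given for these sums, since the genes were chosen with results known. Some of the genes reach 20 UMIs only with the help of KO libraries. Over the 89 genes that reach it in WT alone, a choice that leans on WT counts, the ratio of means was 1.25 in excitatory neurons, 1.33 in inhibitory neurons, 1.59 in microglia and 1.16 in oligodendrocyte precursors, with both KO libraries above both WT libraries in each. In astrocytes the same genes had 99.8 and 133 CPM in KO against 90.5 and 108 in WT, a ratio of 1.17 with overlapping groups. In the astrocyte cluster that held most of the Vmn2r78 UMIs the ratio was 0.78.

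**Figure D1:**
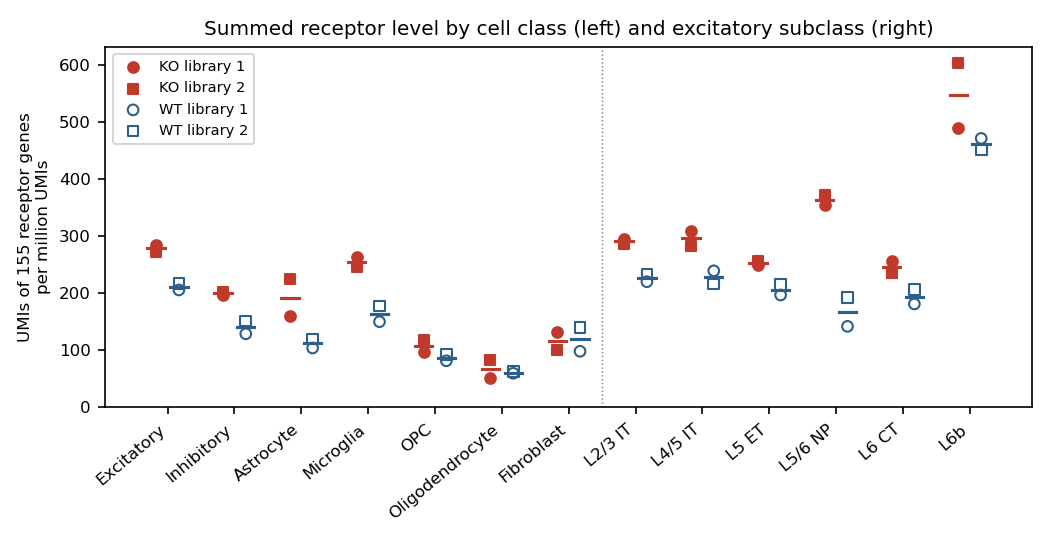
CPM summed over the 155 receptor genes (vertical axis) in each library, by class on the left and excitatory subclass on the right; points are libraries and bars are means of 2. Near-projecting layer 5/6 neurons stand at 355 and 372 in KO against 142 and 193 in WT, and layer 6b neurons are highest in both genotypes.

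Among excitatory subclasses the layer 6b neurons, deep cells below layer 6, had the highest sum, 490 and 603 CPM in KO against 471 and 452 in WT. Near-projecting layer 5/6 neurons, which send axons only locally, had 355 and 372 CPM in KO against 142 and 193 in WT, a ratio of 2.17. Over the 89 genes that reach the minimum in WT alone they had 225 and 208 CPM in KO against 133 and 185 in WT, a ratio of 1.36. A nucleus held up to 8 receptor genes. In excitatory neurons 63.8% and 55.2% of KO nuclei had a receptor UMI against 53.2% and 51.5% of WT nuclei, at median depths of 3955 and 3164 UMIs in KO and 4056 and 3592 in WT. Oligodendrocytes, given for comparison, had 5.54% and 7.14% in KO and 5.96% and 5.73% in WT at median depths of 1030 and 865 against 986 and 954 UMIs. Whether this class lacks the receptors was not tested.

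In excitatory neurons 83 of the 155 genes passed the filter on low counts, and the other 72 had 20 to 186 UMIs over all barcodes with a median of 31. edgeR's quasi-likelihood test with Benjamini-Hochberg adjustment over all 19154 genes called 15 higher in KO, beside 2.99% of all genes tested, and 2 lower, beside 1.3%. Genes with 0 WT UMIs passed the filter through their KO counts and had to differ, so the count is a description of the genes and not support for a shared direction. The log2 fold change was positive for 63 of the 83, with a median of 0.26, against 0.003 over all genes. At an unadjusted p under 0.05, 25 were higher and 2 lower. The shares of all genes with a positive change or an unadjusted p under 0.05 were not counted, here or in the other comparisons. Such counts thus describe these genes alone. By family, 14 of 58 tested Olfr genes rose and 2 fell, 1 of 20 tested Vmn2r genes rose, and 0 of 5 tested Vmn1r genes passed. Over all barcodes 107 were tested, 16 rose beside 2.86% of all genes, and 2 fell beside 1.04%.

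**Figure D2:**
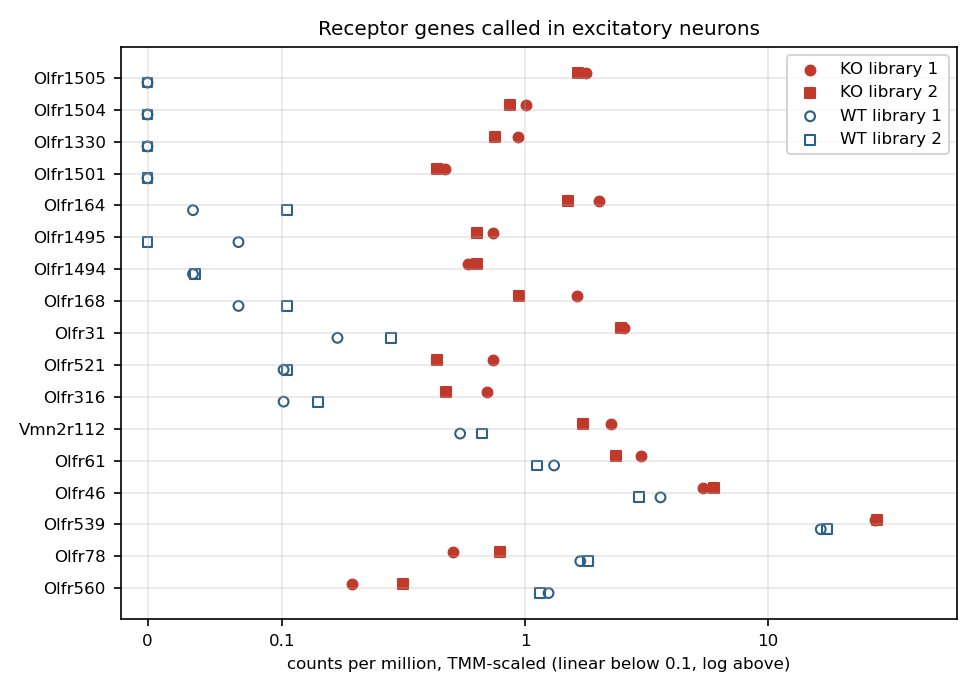
TMM CPM (horizontal axis, linear below 0.1 and log above) in excitatory neurons for the 17 genes with adjusted p under 0.05; filled points are KO libraries and open points WT libraries. Olfr1505, Olfr1504, Olfr1330 and Olfr1501 have 0 counts in both WT libraries, and Olfr78 and Olfr560 are the 2 genes plotted with WT above KO.

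**Figure D3:**
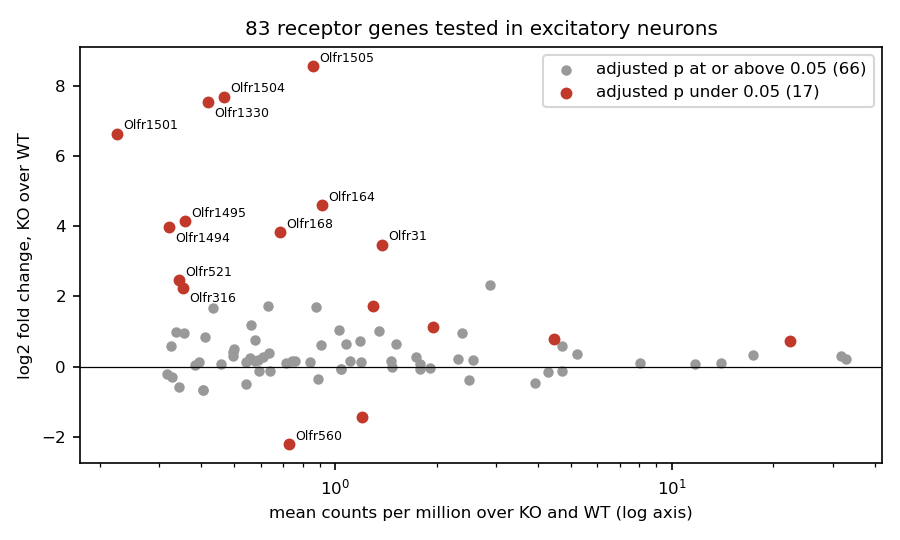
Log2 fold change of KO over WT (vertical axis) against mean TMM CPM (log axis) for the 83 receptor genes tested in excitatory neurons; red points have adjusted p under 0.05. The fitted values of the 4 highest points depend on the prior count, since their WT counts are 0.

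Of the chromosome 19 odorant receptors, Olfr1494, Olfr1495, Olfr1501, Olfr1504 and Olfr1505 rose in KO excitatory neurons. Olfr1505 (ENSMUSG00000062314, chr19:13913530-13921866, plus strand, 5 exons) had 46 and 42 UMIs in KO excitatory neurons, against 0 and 0 in WT. The KO level was at least 34.1-fold higher against a floor of 3 UMIs over both WT libraries, with adjusted p = 0.000849 in edgeR. Both KO libraries held similar numbers. Olfr1504, the next gene at lower coordinates and on the minus strand, had 26 and 22 UMIs in KO against 0 and 0 in WT, at least 18.6-fold higher (adjusted p = 0.00366, edgeR). Olfr1501 had 12 and 11 UMIs in KO against 0 and 0 in WT, at least 8.91-fold higher (adjusted p = 0.0168, edgeR), a call lost without WT library 1 and with no low-count filter. Of the 12 alternative settings, Olfr1501 could be tested in 9 and was called in 7. It was not tested without KO library 1, without KO library 2 or without the near-projecting cluster.

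Olfr1494 and Olfr1495, at the lower end of the same stretch, had few WT UMIs. Olfr1494 had 15 and 16 UMIs in KO and 1 and 1 in WT, a depth-scaled ratio of 18.0 (95% exact counting interval 4.59 to 155; adjusted p = 0.0101, edgeR). Olfr1495 had 19 and 16 in KO and 2 and 0 in WT, a ratio of 20.3 (5.23 to 175; adjusted p = 0.0168, edgeR). The intervals cover counting error only. Olfr1494 was not called in DESeq2 (adjusted p = 0.0517), nor Olfr1495 with no low-count filter (adjusted p = 0.0727 in edgeR). Olfr1496, between Olfr1495 and Olfr1497, had 15 and 13 UMIs over all barcodes in KO against 0 and 0 in WT (adjusted p = 0.0156, edgeR), and did not pass the filter in excitatory neurons.

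Taking the 11 receptor genes from Olfr1493-ps1 to Olfr1505 (199 kb, chosen after their values were seen), KO libraries held 355 UMIs and WT libraries 5. In 9 of the 11 no WT library held a UMI. The stretch is the distal end of a cluster of 66 receptor genes, of which 18 were among the 155, 11 were tested in excitatory neurons and 5 rose. Elsewhere in the cluster, Olfr1426 and Olfr1432, named after their values were seen, did not pass the test. Olfr1426 had 0.853 and 1.10 TMM CPM in KO against 0.438 and 0.14 in WT (adjusted p = 0.0837, edgeR). Olfr1432 had 0.698 and 0.631 against 0.303 and 0.105 (adjusted p = 0.105, edgeR). Olfr1417, the gene of the cluster with most UMIs, had overlapping groups, with 108 and 93 UMIs over all barcodes in KO against 92 and 110 in WT. On the same strand and within 50 kb upstream, Olfr1494 lies before Olfr1495 and Olfr1504 before Olfr1501, and all 4 rose.

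**Figure D4:**
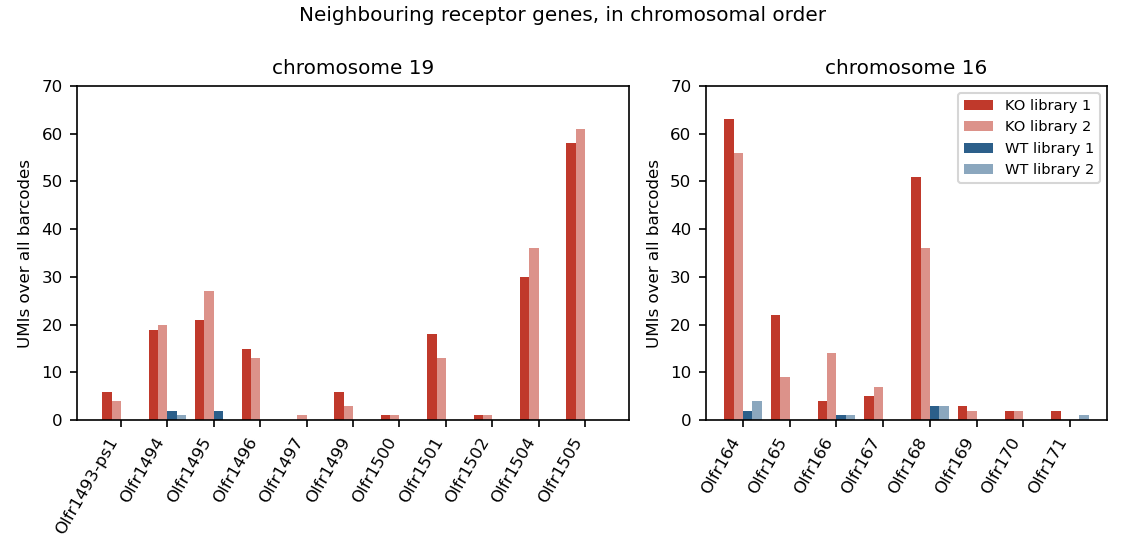
UMIs over all barcodes (vertical axis) for 11 adjacent receptor genes of chromosome 19 and 8 of chromosome 16 in chromosomal order, with KO bars left of WT bars. The 2 KO libraries have similar heights for Olfr1505, 58 and 61 UMIs, and WT bars are at or near 0.

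Near-projecting layer 5/6 neurons held the highest level of these chromosome 19 genes. The 11 genes together took 86.4 and 131 CPM in KO, from 38 and 51 UMIs, and 0 and 0 in WT. At least 1 of them was seen in 18.2% and 23.0% of KO nuclei at median depths of 2780.5 and 2211 UMIs, against 1 of 1316 KO oligodendrocytes of library 2. Of the 1355 KO oligodendrocytes of library 1, 0 held one, which allows a share of nuclei with a UMI of up to 0.221% and sets no limit on nuclei that express the genes. The oligodendrocytes were shallower, at median depths of 1030 and 865 UMIs in KO. Of the KO nuclei, 5 and 9 had UMIs of at least 2 of the genes. Layer 6b neurons had 15.3 and 13.5 CPM in KO against 2.45 and 0 in WT, and the cluster led by Ndst4 and Abi3bp had 16.2 and 8.85 against 0 and 0. Layer 2/3 intratelencephalic neurons had 2.63 and 2.92 CPM in KO against 0 and 0, layer 6 corticothalamic neurons 6.01 and 5.89 against 0.223 and 0.273, and microglia 0 in all 4 libraries.

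In near-projecting neurons alone 2 of the 155 genes could be tested and Olfr1505 rose beside 0.609% of all genes (28.7 and 41.3 TMM CPM in KO against 0 and 0 in WT, adjusted p = 0.00176, edgeR), at least 11.6-fold. Its UMIs were in 6.76% and 7.88% of the KO nuclei. With 0 WT UMIs, Olfr1505 passed the minimum and the filter through its KO counts and had to differ. Its call here is thus a description. Without the near-projecting cluster, excitatory neurons still gave 12 rising genes of 79 tested, beside 570 of 19084 over all genes. Olfr1505 kept an adjusted p of 0.00204 there in edgeR.

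Olfr31 and Olfr1330 rose outside these clusters, on chromosomes 14 and 4. Olfr31 (ENSMUSG00000072707, chr14:14322828-14331791, plus strand, overlapping the antisense transcript Gm48860) had 66 and 63 UMIs in KO excitatory neurons, against 5 and 8 in WT, a log2 fold change of 3.47 ± 0.33 (SE; adjusted p = 0.000739, edgeR). Among neuron subclasses its KO level was highest in layer 5 extratelencephalic neurons, which project out of the cortex, at 5.79 and 5.33 CPM in KO against 0 and 0 in WT. Inhibitory neurons held 8 and 7 Olfr31 UMIs in KO against 0 and 0 in WT, and astrocytes 3 and 4 against 0 and 0. Olfr1330 (chr4:118888597-118899597, plus strand) had 24 and 19 UMIs in KO against 0 and 0 in WT, at least 16.7-fold higher (adjusted p = 0.00481, edgeR). Olfr1330 was also highest in near-projecting neurons, at 18.2 and 12.8 CPM in KO against 0 and 0 in WT. Pearson correlation was taken over 96 sums (24 cell types by 4 libraries, where sums of 1 library share its animal and depth). The genes most like Olfr31 were 2010309G21Rik (Pearson r = 0.906), Gm47186, Zfp981, Pxt1 and Pramel1. Those most like Olfr1505 were Pramel1 (0.894), Gm1110, Gm12609, Fbxw19 and Zfp986. A sum with 0 UMIs of a gene took a value set by its depth alone, and depths ran from 45176 to 8899489 UMIs. These r values therefore cannot be read as co-expression.

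A second neighbourhood, on chromosome 16, held 2 genes that rose. Olfr164 (chr16:19284104-19314064, minus strand) had 52 and 38 UMIs in KO excitatory neurons, against 1 and 3 in WT, a log2 fold change of 4.59 ± 0.49 (adjusted p = 0.00142, edgeR). Olfr168 (chr16:19529274-19535555, minus strand) had 42 and 24 UMIs in KO against 2 and 3 in WT, 3.84 ± 0.53 (adjusted p = 0.00542, edgeR). The 8 receptor genes of that 346 kb held 278 UMIs in KO and 15 in WT over all barcodes. Their level peaked in an unnamed excitatory subclass led by Tnxb and Tshz2, at 13.8 and 9.88 CPM in KO against 0 and 0 in WT, and was 6.82 and 2.56 against 0 and 1.97 in near-projecting neurons.

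Olfr539, Olfr61 and Olfr46, near the end of chromosome 7, also rose in excitatory neurons. Olfr539 (chr7:140659930-140678580, plus strand, 5 exons) had 713 and 710 UMIs in KO excitatory neurons, against 489 and 499 in WT, a log2 fold change of 0.71 ± 0.10 (adjusted p = 0.00673, edgeR). Olfr61 had 77 and 60 UMIs in KO against 39 and 32 in WT (1.13 ± 0.24, adjusted p = 0.038, edgeR), and Olfr46 had 139 and 152 against 107 and 84 (0.80 ± 0.18, adjusted p = 0.0437, edgeR). The Olfr61 and Olfr46 calls were both lost in DESeq2, with no low-count filter and without WT library 2, and that of Olfr46 also without KO library 2. All 3 lie among 19 receptor genes between 140.16 and 140.71 Mb. Olfr53, on the same strand 6845 bases before Olfr539, had 1.98 and 1.62 TMM CPM in KO against 0.708 and 1.08 in WT and did not pass (adjusted p = 0.0997, edgeR), and Olfr46 precedes Olfr61 by 11292 bases.

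Olfr539 also rose in inhibitory neurons and in 3 excitatory subclasses. In inhibitory neurons it had 42 and 50 UMIs in KO against 10 and 22 in WT, or 11.6 and 12.9 TMM CPM in KO against 2.45 and 5.21 in WT (1.66 ± 0.32, adjusted p = 0.0213, edgeR), 1 of 14 receptor genes tested there. All genes rose at 0.878% and fell at 0.297%, and 0 of the 14 fell. This call was lost in DESeq2 and without WT library 1. It rose in layer 4/5 intratelencephalic neurons (1.26 ± 0.25, adjusted p = 0.0351, edgeR; 0.757% of all genes), in layer 6 corticothalamic neurons (0.78 ± 0.19, adjusted p = 0.0248; 2.89%) and in the unnamed excitatory cluster led by BC006965 and Il1rapl2 (0.82 ± 0.16, adjusted p = 0.0144; 2.23%). The difference between the excitatory and inhibitory changes was -0.92 ± 0.30 with an adjusted p of 0.243 in edgeR.

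Vmn2r112, Olfr521 and Olfr316 rose as well. Vmn2r112, a type 2 vomeronasal receptor of chromosome 17, had 58 and 44 UMIs in KO and 16 and 19 in WT (1.72 ± 0.29, adjusted p = 0.015, edgeR), a call lost with no low-count filter (adjusted p = 0.0585). Its neighbour Vmn2r111 passed over all barcodes (adjusted p = 0.0452) and not in excitatory neurons (1.70 ± 0.44, adjusted p = 0.0689, edgeR). Olfr521 had 19 and 11 UMIs in KO and 3 and 3 in WT (2.46 ± 0.55, adjusted p = 0.046, edgeR), and Olfr316 had 18 and 12 against 3 and 4 (2.24 ± 0.52, adjusted p = 0.0496). Olfr316 was called in 3 of 12 alternative settings and Olfr521 in 6 of 11.

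Olfr560 and Olfr78 were the 2 receptor genes that fell in KO excitatory neurons. These class I odorant receptors, the class that resembles fish receptors, overlap on the minus strand of chromosome 7 (chr7:102751818-102759366 for Olfr560). Olfr78 is known to bind short-chain fatty acids. Olfr560 had 5 and 8 UMIs in KO against 37 and 33 in WT, -2.22 ± 0.38 (adjusted p = 0.015, edgeR), and Olfr78 had 13 and 20 against 50 and 52, -1.43 ± 0.30 (adjusted p = 0.0362). The Olfr78 call was lost in DESeq2 and without WT library 2, and with no low-count filter both calls were lost. Their transcripts are identical over 869 bases (100% identity), so reads cannot be told apart where they share sequence. Layer 2/3 intratelencephalic neurons had 0.136 and 0.227 TMM CPM of Olfr560 in KO against 3.22 and 2.66 in WT (-3.87 ± 0.55, adjusted p = 0.0065, edgeR; 0.551% of all genes fell there).

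Of the 10 genes with most UMIs, Olfr539 alone passed the test in excitatory neurons. Olfr239 had 957 and 832 UMIs in KO excitatory neurons and 843 and 828 in WT (0.29 ± 0.11, adjusted p = 0.178, edgeR). Vmn2r87 had 883 and 926 in KO and 925 and 838 in WT (0.23 ± 0.10, adjusted p = 0.257). Olfr55 had 518 and 469 in KO and 458 and 443 in WT (0.32 ± 0.11, adjusted p = 0.151). None of these passed, nor did Olfr323 (0.08), Vmn2r85 (0.10), Vmn2r84 (0.09), Vmn2r57 (0.58), Olfr1564 (-0.14) and Vmn2r29 (-0.47) as log2 fold changes.

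Vmn2r78, a type 2 vomeronasal receptor (ENSMUSG00000091962, chr7:86915094-86955312, plus strand), was the receptor gene that rose in KO astrocytes. It had 43 and 90 UMIs in KO astrocytes, against 0 and 0 in WT, or 40.9 and 74.0 TMM CPM in KO, at least 62.7-fold higher (adjusted p = 0.000701, edgeR). It was 1 of 5 genes tested in astrocytes, beside 0.255% of all genes that rose and 0.0247% that fell. With 0 WT UMIs, Vmn2r78 passed the minimum and the filter through its KO counts and had to differ. Its calls are thus a description. Over all barcodes it had 59 and 127 UMIs in KO against 0 and 0 in WT (adjusted p = 0.00303, edgeR).

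Most of the astrocyte Vmn2r78 UMIs came from 1 of the 2 astrocyte clusters, made without receptor genes, where Vmn2r78 was among the leading genes. That cluster held 198 and 367 KO nuclei against 19 and 29 WT nuclei, and 18.2% and 16.6% of its KO nuclei had a Vmn2r78 UMI, at median depths of 1585.5 and 1317 UMIs. The other astrocyte cluster, 469 and 480 KO nuclei against 1028 and 989 WT nuclei, had 0.426% and 1.88% of KO nuclei with a UMI at median depths of 1453 and 1122 UMIs. Oligodendrocytes had 0.074% and 0.076% in KO. WT nuclei in the first cluster were few and deep, with medians of 6387 and 5735 UMIs, so a WT value within that cluster rests on few nuclei. Excitatory neurons had 1 and 15 UMIs in KO and 0 and 0 in WT.

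**Figure D5:**
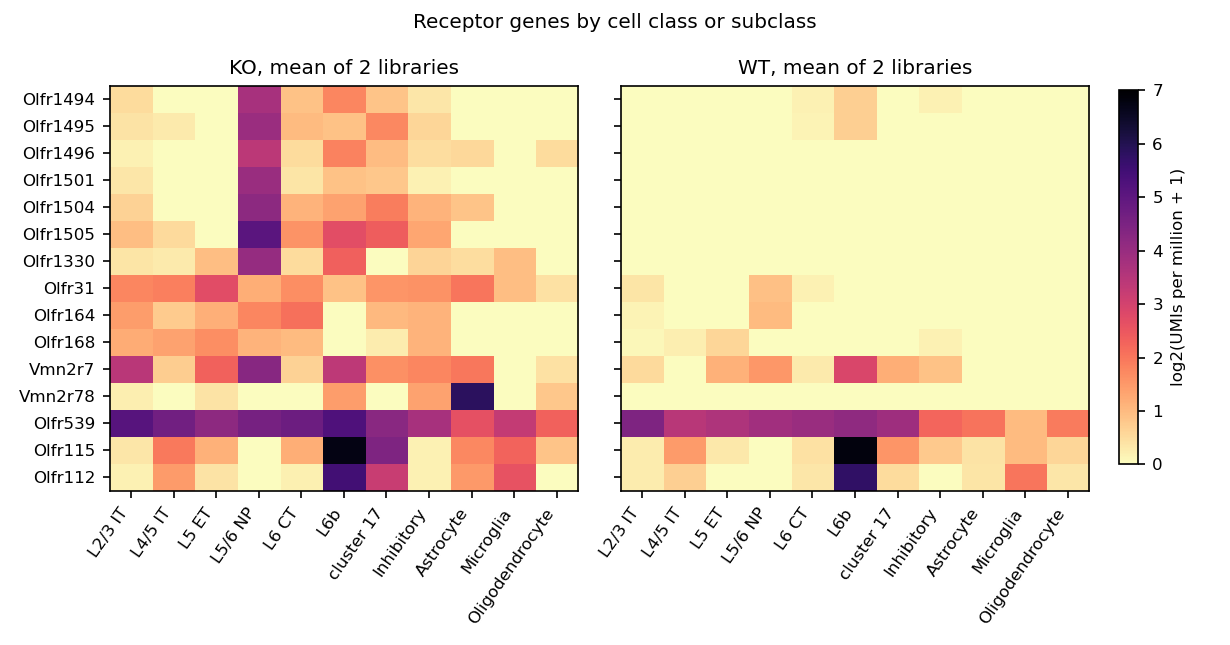
Mean log2(CPM + 1) of 15 receptor genes (rows) in 11 cell types (columns), KO panel left and WT panel right, each the mean of 2 libraries. The chromosome 19 genes are darkest in KO near-projecting neurons, Vmn2r78 in KO astrocytes, and Olfr115 and Olfr112 in layer 6b neurons of both genotypes.

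Olfr115 and Olfr112, of 1 receptor cluster on chromosome 17, had their highest level in layer 6b neurons in both genotypes. Olfr115 had 73.7 and 140 CPM in KO layer 6b neurons against 99.3 and 126 in WT, and its UMIs were in 11.3% and 13.5% of KO and 16% and 16.5% of WT nuclei. In oligodendrocytes the highest share was 0.152%. Olfr112 had 21.5 and 65.7 CPM in KO against 46.6 and 58.8 in WT. Neither differed past the test (adjusted p = 0.937 and 0.831, edgeR). In KO library 1 the cluster led by Ndst4 and Abi3bp held 101 Olfr115 UMIs in 15 nuclei and 39 Olfr112 UMIs in 12 nuclei, against 0 for both in KO library 2. The WT libraries held 1 and 8 Olfr115 UMIs in that cluster.

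Olfr111 and Olfr56 led in microglia, the resident immune cells of the brain. Olfr111 had 48 and 50 UMIs in KO against 26 and 21 in WT and held 34.2% of the class's receptor UMIs. It had 104 and 101 TMM CPM in KO against 55.2 and 44.6 in WT (1.03 ± 0.26) and did not pass (adjusted p = 0.11, edgeR). Olfr56, which overlaps the interferon-induced gene Ifi47 on the same strand and is uncertain for that reason, had 20 and 21 UMIs in KO against 11 and 14 in WT (0.68 ± 0.36, adjusted p = 0.479). In microglia 0 of 2 genes tested passed in edgeR, in DESeq2 or in limma-voom, with 1 higher at an unadjusted p under 0.05 in each. Of all genes 0.122% rose and 0.0779% fell there. In precursors, oligodendrocytes, fibroblasts, endothelial, mural and committed precursor cells 0 of the receptor genes passed the filter.

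Vmn2r7 and Vmn2r4, type 2 receptors of the family that is co-expressed with other receptors in vomeronasal neurons, had values that rested on 1 library. Vmn2r7 rose in layer 2/3 intratelencephalic neurons, where it had 19 and 150 UMIs in KO against 3 and 4 in WT (2.58 and 17 TMM CPM against 0.419 and 0.483; adjusted p = 0.0498, edgeR; 1.35% of all genes rose there). In KO library 2 the 150 UMIs lay in 51 nuclei, up to 12 in a nucleus. In all excitatory neurons its log2 fold change of 2.31 did not pass (adjusted p = 0.057, edgeR) and was 1.11 without KO library 2. Vmn2r4 had 132 and 115 UMIs in KO over all barcodes against 2 and 136 in WT, so that WT library 1 alone was near 0.

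The genotype effect in excitatory neurons was tested against that in each of 9 other classes. Of 535 pairs of a receptor gene and a class, 0 passed in edgeR, 10 had an unadjusted p under 0.05, and the smallest adjusted p was 0.243. Over all genes 0.144% of such pairs passed as higher in excitatory neurons and 0.0886% as lower. Genes with 0 WT UMIs in both classes could not be estimated. In precursors, oligodendrocytes, fibroblasts, endothelial, mural and committed precursor cells 0 receptor genes had passed the filter on their own counts. Pairs with these classes entered through the excitatory counts. Many had wide errors, such as 9.48 ± 8.58 for Olfr539 against mural cells. A count of 0 there does not show that the effects are equal.

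Of the genes that act with the receptors, 1 passed the test in excitatory neurons. There 0 of 18 tested signal transduction genes of a list of 23 passed in edgeR, with 2 higher and 2 lower at an unadjusted p under 0.05. Gng13, a G protein gamma subunit, had 24.0 and 28.3 TMM CPM in KO against 17.6 and 19.4 in WT (0.50 ± 0.12, adjusted p = 0.057), and the list's median log2 fold change was 0.003. Of 16 tested trafficking and choice genes 1 rose and 0 fell, beside 2.99% and 1.3% of all genes. Ddit3, a stress-response transcription factor, had 9.97 and 12.7 TMM CPM in KO against 6.81 and 7.2 in WT (0.70 ± 0.15, adjusted p = 0.0425, edgeR). With doublets kept the Ddit3 call was lost, and 0 of the 16 passed. Of 11 tested other chemoreceptors (trace amine, taste and formyl peptide receptors and the Ms4a family) 0 passed in edgeR, with 1 higher at an unadjusted p under 0.05 and a median log2 fold change of 0.41. Over all barcodes the counts were 0 of 20, 0 of 18 and 0 of 13.

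Olfactory sensory neuron markers were at trace level. Omp, Cnga2, Stoml3 and Rtp1 together had 33 and 26 UMIs in KO and 30 and 63 in WT over all barcodes. Rtp1 had 3 and 0 UMIs in KO and 3 and 5 in WT. The other 3 of the 7 markers, Gng13, Adcy3 and Gnal, are also expressed in cortex, and the 7 together gave 189 and 191 CPM in KO against 174 and 181 in WT. Olfactory bulb granule markers gave 594 and 422 CPM in KO and 491 and 430 in WT. Their part in the receptor values was not tested.

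Reads of near-identical copies can be split or misplaced. The annotated transcripts of Olfr239 and Olfr55 were 97.7% identical over 3774 bases, those of Olfr1505 and Olfr1502 97.5% over 951, those of Vmn2r7 and Vmn2r6 97.8% over 8921, those of Vmn2r111 and Vmn2r112 96.4% over 3509, and those of Vmn2r78 and Vmn2r79 94.3% over 3655. Those of Vmn2r29 and Gm3962 were 99.5% identical over 2543 bases, those of Olfr46 and Gm47164 97.2% over 2740, and those of Olfr1501 and Olfr1504 92.7% over 1324. These pairs are examples, and other named genes had close copies too. Values of these genes are uncertain to that extent. Of the 155 genes, 9 overlap another counted gene.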

How the data were processed

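The authors deposited, for each of 4 libraries, a matrix of raw UMI counts per gene and barcode; Cell Ranger 7.1.0 and the mm10 build are named per the submitters' processing notes, with no filter stated there. Barcodes entered when they had 500 UMIs and 300 genes or more and a mitochondrial share of 5% or less. Doublets found by Scrublet, 4.14% to 5.11% of barcodes, were taken out, leaving 11176 to 13882 nuclei per library. Nuclei were clustered (scanpy 1.11.5, 2000 variable genes without receptor genes, 30 components, Leiden resolution 1) and clusters named by markers; 5152 nuclei in unnamed clusters stayed out of the class sums. Counts were summed per library and class and tested with edgeR 4.0.16 (TMM, quasi-likelihood, filter at a minimum count of 10, R 4.3.3, no replicate block), with p-values adjusted over all genes. limma 3.58.1 and DESeq2 1.42.0 were alternatives, beside other size factors, no filter, a replicate block, doublets kept and each library left out. Positions come from GENCODE vM21 on GRCm38; 99.6% of gene IDs matched. Transcripts were compared with BLAST 2.17.0. Genes were named where they were among the 20 smallest p in excitatory neurons with adjusted p under 0.05, the 10 with most UMIs, or up to 4 called per other class; Vmn2r4, Olfr115, Olfr112, Olfr1496, Vmn2r111 and other named genes were added after their values were seen. The genes, lists and tests were chosen with earlier results of these data known. The fits were tested on simulated data. With 2 animals per genotype, edgeR set each difference against a spread between these 4 libraries, estimated with help from all genes.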

Additional observations from a re-analysis of the deposited data

Results flagged for a closer look

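Receptor genes below the minimum of 20 UMIs were outside the comparisons, and 5 of them, picked after their values were seen, had at least 10 KO UMIs and 0 in WT. Olfr1490 had 10 and 9 UMIs in KO, 19 in all, against 0 and 0 in WT. Olfr1493-ps1 had 6 and 4, 10 in all, against 0 and 0. Both lie on chromosome 19 in the receptor cluster of Olfr1494. Olfr167, on chromosome 16 beside Olfr168, had 5 and 7, 12 in all, against 0 and 0. Olfr1346, on chromosome 7, had 6 and 6, 12 in all, against 0 and 0. Olfr1338, on chromosome 4 near Olfr1330, had 5 and 5, 10 in all, against 0 and 0. In the reverse direction 0 of these receptor genes had at least 10 WT UMIs and 0 in KO. The share over all genes was not counted for either direction. The 5 and the 0 are thus a description of these genes alone. All symbols below the minimum held 1247 KO and 945 WT UMIs together.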

How the results depend on the processing

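In excitatory neurons the rising count was 15 of 83, beside 573 of all 19154 genes tested. It was 8 of 155 with no low-count filter, beside 230 of 26714. With the replicate block it was 23 of 83, beside 1778 of 19154. The counts over all genes thus moved in the same directions. The falling count of 2, beside 249 of 19154 genes, was 1 in DESeq2, 0 with no filter and 0 without genes that overlap another gene. Over all genes DESeq2 called 844, of which 592 rose, and the fit with no filter called 284, of which 230 rose. The falling count of receptor genes also moved when a library was left out. Over all barcodes the rising count of 16 was 26 with the replicate block and 13 to 25 without a library (25 without KO library 2), and the falling count of 2 was 1 in DESeq2 and 1 to 2 without a library. Rising genes in other classes numbered 2, 1 in DESeq2 and 3 with no low-count filter (2 of them in inhibitory neurons). They numbered 3 with the replicate block (1 of them in microglia, where the fit without the block called 0). Of all 8983 genes tested in microglia, 11 rose without the block and 159 with it. In inhibitory neurons 127 of 14457 rose, and 218 of 23699 with no low-count filter. The cause of these differences was not tested. The summed ratio of 1.32 was 1.25 with genes over the minimum in WT alone. Of the 17 called genes 7 (Olfr1330, Olfr1504, Olfr1505, Olfr164, Olfr168, Olfr31 and Olfr539) kept the call in all 12 settings; DESeq2 kept 11, limma 16, the block 17. Log2 fold changes of uncalled genes that turned negative were Olfr323 (-0.038 to 0.18), Vmn2r85 (-0.0094 to 0.20), Vmn2r4 (-0.044 to 5.44) and Olfr115 (-0.19 to 0.75) when a library was left out, and Olfr115 (-0.19) and Olfr112 (-0.32) without the cluster led by Ndst4 and Abi3bp. The labels do not pair the samples. Same-numbered libraries correlated at 0.36 in excitatory deviations, a hint from the data. With 2 libraries per genotype the deviations mirror each other, so this is 1 value. In both genotypes library 1 had the Uty pattern and library 2 the Xist pattern. The replicate block is thus also a block by that pattern, which the main fits left out, and the 2 cannot be told apart. Leaving out the near-projecting cluster or that cluster was chosen after seeing the data. Depth limits genes near the minimum.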
